A study of Mus musculus with 43 samples.

Results

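The 10 hair shaft keratin genes listed here were followed across mouse back skin: the type I (acidic) genes Krt31, Krt33a, Krt33b, Krt34, Krt35 and Krt36 and the type II (basic) genes Krt81, Krt83, Krt85 and Krt86. They were taken by name, and all 10 were found among the 23256 genes of the normalised table. Poly-A RNA was sequenced in 43 libraries of back skin from female mice aged 10 to 13 weeks, in 9 groups of 3 strains by 3 UVB regimens. The strains were NZM, the lupus-prone line NZM2328 of the series title, iNZM and WT; the labels state neither the allele that sets iNZM apart nor what WT stands for. A single dose of 300 mJ/cm2 made up the acute regimen, chronic UVB was a dose of 100 mJ/cm2 on each of 5 days, and the remaining mice had no UVB. Skin was taken 24 hours after the last dose. Each group held 5 libraries, except the unexposed iNZM and WT groups, which held 4 each. The labels do not say that each library came from a separate mouse, so p-values measure only the spread between these libraries. Libraries are named below by the number in their titles.

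Hair keratins pair as 1 type I with 1 type II chain and build the hard filaments of the hair shaft. They are made in the cortex and cuticle of a growing follicle, above the dividing matrix cells of the hair bulb, and not in a resting follicle. Krt35 and Krt85 are known as the earliest pair, switched on in the matrix and precortex, whereas Krt31, Krt33a, Krt33b, Krt81, Krt83 and Krt86 mark the cortex above them and Krt34 comes late in the cortex. Back skin also holds interfollicular epidermis, dermis, fat and the thin muscle layer beneath. Bulk RNA cannot tell apart fewer cells of a type and less RNA per cell.

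The members lie in the clustered keratin loci. In GENCODE vM21 on build GRCm38, 9 of the 10 had a gene model by symbol. The 6 type I genes lay on the minus strand of chromosome 11, from chr11:100011195-100016212 for Krt33a to chr11:100102007-100105626 for Krt36, and Krt81 (chr15:101459061-101463751), Krt86 (chr15:101473478-101479986) and Krt83 (chr15:101485130-101491512) lay on chromosome 15. No other gene model overlapped these 9. Exonic stretches as long as 1 read of 151 bases were shared with another keratin over 14.2% of the positions in Krt81 and 14.3% in Krt86 (both with the other of that pair), 9.94% in Krt34, 7.59% in Krt33a and 6.29% in Krt31. Reads within such stretches match more than 1 gene, and the sources used here do not state how they were counted. The values of these 5 genes are less certain for that reason. No such stretch was found in Krt33b, Krt35, Krt36 or Krt83. A search with stretches shorter than a read did find sharing, over 24.2% of positions in Krt33b and 22.1% in Krt83. It found 2.7% in Krt35 and 0.432% in Krt36. In the 5 genes above, such sharing ran from 17.8% in Krt33a to 43.3% in Krt86.

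RefSeq promoter windows on build GRCm38.p6 were at hand for 4 members: Krt31, Krt33b, Krt34 and Krt36. The 250 bases upstream of the start site of each are printed here to show which letters these members share and where Krt36, the member whose profile lay farthest from the members' mean (below), differs. Each is read 5′ to 3′ on the minus strand, at chr11:100050552-100050801 for Krt31, chr11:100029869-100030118 for Krt33b, chr11:100041555-100041804 for Krt34 and chr11:100105627-100105876 for Krt36. Capitals mark 3 motifs that were searched on both strands: the TATA word TATAAA, the LEF1/TCF word CTTTGAA, and the HOXC13 word, which is TTAATN or TTTATN followed by 2 purines.
Krt31: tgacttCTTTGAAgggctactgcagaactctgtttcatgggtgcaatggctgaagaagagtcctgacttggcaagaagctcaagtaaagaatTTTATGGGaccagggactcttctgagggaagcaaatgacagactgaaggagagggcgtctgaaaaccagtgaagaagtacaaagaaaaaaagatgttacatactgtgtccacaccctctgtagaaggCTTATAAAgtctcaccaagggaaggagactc
Krt33b: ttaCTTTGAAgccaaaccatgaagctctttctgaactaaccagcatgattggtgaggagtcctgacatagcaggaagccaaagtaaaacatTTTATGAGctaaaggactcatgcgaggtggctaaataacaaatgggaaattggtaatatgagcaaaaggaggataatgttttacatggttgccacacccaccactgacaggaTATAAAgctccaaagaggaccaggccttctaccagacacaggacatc
Krt34: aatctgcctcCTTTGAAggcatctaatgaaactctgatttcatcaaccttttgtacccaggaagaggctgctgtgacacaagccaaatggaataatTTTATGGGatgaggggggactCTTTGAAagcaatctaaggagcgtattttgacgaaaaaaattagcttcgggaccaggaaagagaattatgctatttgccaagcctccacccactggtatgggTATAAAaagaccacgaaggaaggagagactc
Krt36: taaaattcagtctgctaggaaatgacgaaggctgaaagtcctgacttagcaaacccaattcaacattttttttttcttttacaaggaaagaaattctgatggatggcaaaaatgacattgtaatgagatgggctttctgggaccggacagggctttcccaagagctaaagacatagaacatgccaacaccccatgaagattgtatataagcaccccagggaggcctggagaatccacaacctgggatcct
The windows of Krt31, Krt33b and Krt34 held all 3 motifs, and that of Krt36 held none of these exact words. The Krt36 window does hold the TATA-like letters tatataag near the start, which a search for TATAAA cannot match. A lack of a TATA element in Krt36 is thus not shown. TATAAA began 29 bases upstream of the start in Krt31, 47 in Krt33b and 31 in Krt34. The HOXC13 word was TTTATGGG in Krt31, TTTATGAG in Krt33b and TTTATGGG in Krt34, beginning 158, 159 and 154 bases upstream. In Krt31 a second HOXC13 match on the opposite strand overlapped the TATA word, and Krt34 held CTTTGAA at 2 places. These members were not the closest in ratio: the SD of the log2 ratio over the 14 libraries described below was 0.74 for Krt31 with Krt33b and 1.04 for Krt31 with Krt34. Of 32817 upstream windows of the same length in the table, 12.4% held TATAAA, 4.46% CTTTGAA, 17.2% the HOXC13 word and 0.326% all 3. A match is a description of letters, not a bound site.

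The libraries held 18.49 to 37.76 M assigned reads (median 24.44 M). The values are read counts divided by a size factor per library, called normalised reads here. Epidermal Krt14, a basal cell keratin, was read in all 43 libraries at 42144 to 338018 normalised reads, as was Col1a1 of the dermis at 471 to 42309. Ifnar1, which encodes part of the receptor for type I interferons, lay at 304 to 579 in the 14 iNZM libraries and at 716 to 1378 in the other strains. Genes with at least 10 normalised reads in at least 4 libraries, 19170 in all, were tested, and all 10 members were among them.

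The hair keratins were nearly absent from most libraries and abundant in a few. Their summed share of all reads exceeded 0.1% in 9 of the 43 libraries, lay under 0.001% in 26 and between these limits in 8. The 9 high libraries were 5 (NZM acute), 6 and 49 (iNZM acute), 17, 55 and 56 (NZM chronic) and 22, 24 and 25 (iNZM chronic). None of the 13 unexposed libraries and none of the 10 UVB-exposed WT libraries was among them. The lowest of the 9 shares was 0.203% in library 22, with a 95% Wilson interval of 0.201% to 0.205% that covers counting error only, and the next share below it was 0.0223% in WT acute library 15. The highest was 2.03% in library 25 (2.03% to 2.04%).

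By group median, the share stood at 0.507% in NZM chronic, 0.203% in iNZM chronic, 0.000885% in WT acute, 0.000382% in iNZM acute, 0.000344% in unexposed NZM, 0.000328% in unexposed WT, 0.000227% in WT chronic, 0.000226% in unexposed iNZM and 0.000126% in NZM acute. Each pair of neighbours in that order overlapped in range. Every UVB group of NZM and iNZM held both high and near-absent libraries. After chronic UVB the 5 NZM shares were 0.000313%, 0.507%, 0.0106%, 1.16% and 0.818% in libraries 54, 17, 18, 55 and 56. The 5 iNZM shares were 0.0114%, 0.203%, 9.67e-05%, 1.38% and 2.03% in libraries 57, 22, 23, 24 and 25. After acute UVB, NZM had 7.18e-05%, 0.000126%, 0.000122%, 0.0022% and 0.714% in libraries 1, 46, 3, 47 and 5, and iNZM had 0.978%, 0.000382%, 0.702%, 0.000289% and 9.46e-05% in libraries 6, 48, 49, 9 and 10. Thus 3 of 5 libraries were high in each chronic group, 1 of 5 in NZM acute and 2 of 5 in iNZM acute.

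**Figure D1:**
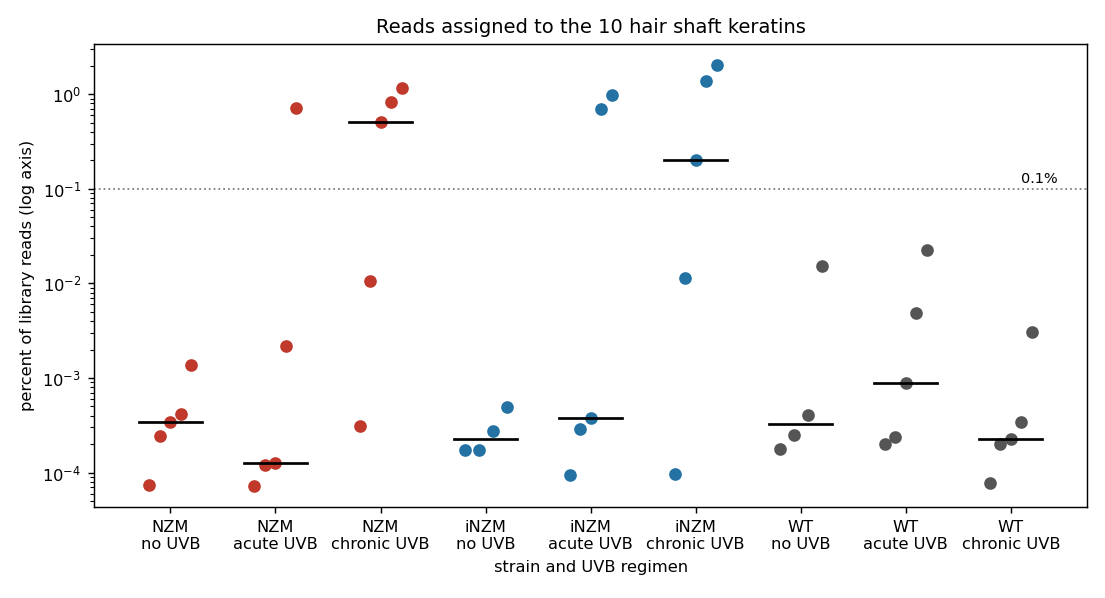
Percent of all reads assigned to the 10 hair shaft keratins (log axis) in each of 43 libraries, by strain and UVB regimen; black lines are group medians. The 9 points above the dotted line at 0.1% all belong to UVB-exposed NZM or iNZM skin, and the highest WT point is 0.0223%.

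**Figure D2:**
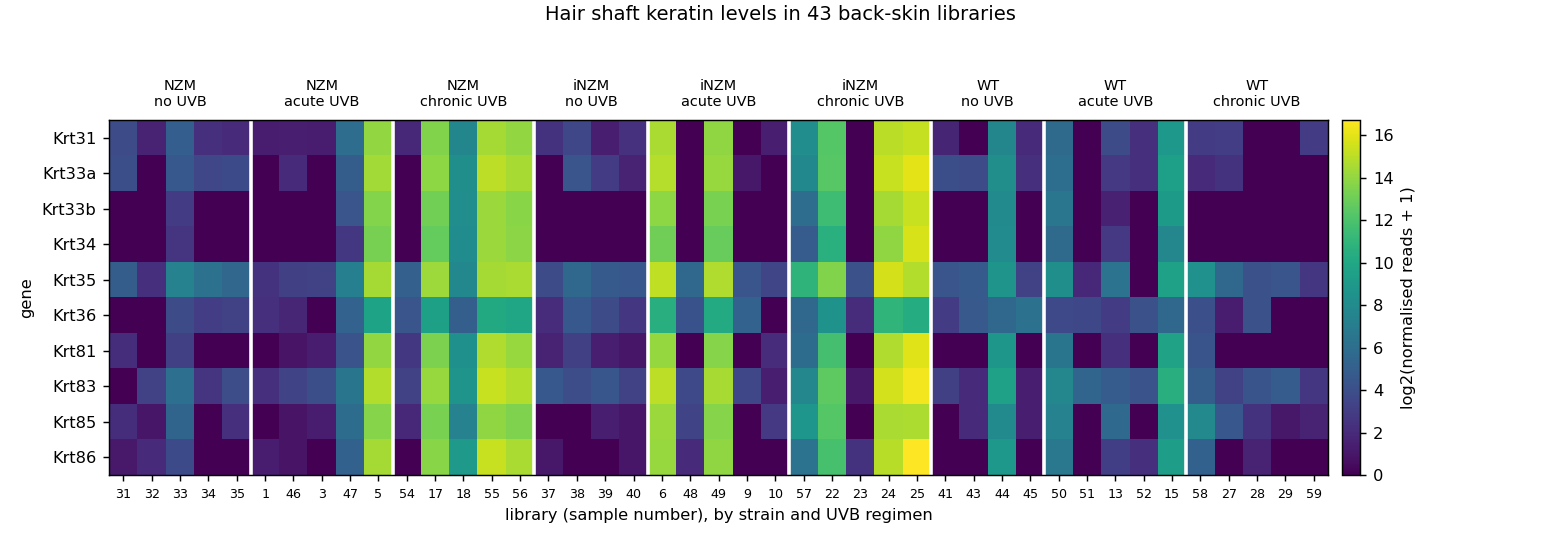
Level of each hair shaft keratin (log2 of normalised reads plus 1, colour) in each of the 43 libraries, grouped by strain and regimen. Bright columns run through all 10 rows in the 9 high libraries.

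Chronic UVB in NZM asked what repeated low doses changed in the lupus-prone line. In all, 7 members rose over unexposed NZM by limma with Benjamini-Hochberg adjustment at 0.05, and the log2 difference was positive in all 10. The background was 3638 of 19170 genes called in either direction, or 19%. The members' median log2 difference was 7.95, against 0.04 over all genes tested. A log2 difference here is that of log2(normalised reads + 1), which understates the change of genes near 0.

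Among the early pair, Krt35 had normalised reads of 33.1, 19401, 225, 22424 and 25023 in NZM chronic libraries 54, 17, 18, 55 and 56, and 29.2, 4.02, 169, 79.4 and 45.6 in unexposed libraries 31 to 35. Its partner Krt85 had 2.84, 10479, 170.4, 15986 and 11495 after chronic UVB, and 3.5, 1, 40.5, 0 and 3.88 without. Of the 5 exposed libraries, 4 stood above every unexposed one for both genes, and library 54 lay within the unexposed range. Krt85 rose by 7.87 ± 2.77 on the log2 scale (SE, n = 5 and 5, limma adjusted p = 0.0425). The difference for Krt35 was 5.94 ± 2.36 (adjusted p = 0.0712), short of the threshold.

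The type I cortex keratins followed the same libraries. Krt31, an acidic cortex keratin, had 2.84, 12114, 198, 22282 and 16428 normalised reads after chronic UVB in NZM, against 14, 2.01, 31.2, 3.67 and 2.91 without. Krt34, the late cortex keratin, had 0, 6777, 278, 19010 and 14259, against 0, 0, 4.62, 0 and 0. Krt36 had 19.9, 733, 32.3, 1133 and 926, against 0, 0, 13.9, 7.33 and 8.72. Krt36 was the only one of the 10 whose exposed and unexposed NZM libraries did not overlap, beside 13.7% of all genes tested. Krt34 rose by 9.28 ± 2.83 (adjusted p = 0.0215), Krt33b by 9.27 ± 2.93 (adjusted p = 0.0252) and Krt36 by 5.75 ± 1.69 (adjusted p = 0.0178). Krt31 differed by 7.38 ± 2.80 (adjusted p = 0.0588) and Krt33a by 7.17 ± 2.97 (adjusted p = 0.0840), neither past the threshold.

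All 3 type II cortex keratins rose in the same comparison. Krt86, which pairs with acidic cortex keratins and is mutated in the beaded-hair disorder monilethrix, had 0, 13840, 529, 39965 and 24887 normalised reads after chronic UVB and 1.17, 3.01, 12.7, 0 and 0 without. Krt81 ranged from 5.68 to 27503 against 0 to 8.09, and Krt83 from 8.52 to 41345 against 0 to 67. The log2 differences were 9.16 ± 2.95 for Krt86 (adjusted p = 0.0276), 9.61 ± 2.90 for Krt81 (adjusted p = 0.0201) and 8.04 ± 2.61 for Krt83 (adjusted p = 0.0290).

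By edgeR and by DESeq2 the count in NZM was 10, beside 18.5% and 23% of all genes. The limma calls rested on few libraries. Without library 17, 55 or 56, limma called none of the 10 in NZM, and without unexposed library 31 it called 4. With the 9 high libraries left out it called none in NZM chronic or iNZM chronic against no UVB, but these libraries were picked by the members' own values, so that result follows from the choice and supports nothing.

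Chronic UVB in iNZM gave rises of the same order. In all, 6 members rose over unexposed iNZM, all 10 differences were positive, and their median was 7.95 against 0.02 over all genes. The background was 28.9% of genes called. The early keratin Krt35 had 1856, 12087, 16.6, 50827 and 28185 normalised reads in libraries 57, 22, 23, 24 and 25, and 13.1, 46.7, 25.6 and 21.9 in unexposed libraries 37 to 40. Krt85 had 436, 5110, 0, 24348 and 25157, against 0, 0, 1.65 and 1.04. Library 23 stayed within the unexposed range for both, and the other 4 stood above it. Krt35 rose by 7.14 ± 2.50 (SE, n = 5 and 4, limma adjusted p = 0.0311) and Krt85 by 9.45 ± 2.94 (adjusted p = 0.0169).

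Cortex keratins in iNZM reached the highest levels of the series. Krt86 had 81.7, 3738, 4.44, 30962 and 106927 normalised reads after chronic UVB, against 1.09, 0, 0 and 1.04, with no overlap between the groups, the only such member of the 10 beside 19.1% of all genes tested. Krt34 had 28.2, 1534, 0, 15641 and 52089, and Krt33b had 60.9, 2992, 0, 22282 and 40596. Neither Krt34 nor Krt33b had a read in the 4 unexposed libraries. With 3 reads summed over that group as a floor, for counting error only, the mean of Krt34 was at least 19020-fold higher and that of Krt33b at least 18097-fold higher. Library 25 carried both limits, which were 5903-fold and 8693-fold without it. Setting both at these bounds left the median of the 10 at 7.95. Krt86 rose by 9.94 ± 3.13 (adjusted p = 0.0180).

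Of the other cortex members in iNZM, Krt31 had 296, 5112, 0, 31879 and 38597 normalised reads after chronic UVB and 4.36, 10.7, 1.65 and 4.17 without. It rose by 7.71 ± 2.97 (adjusted p = 0.0477). Fitted differences of Krt33b (9.45 ± 3.10, adjusted p = 0.0223) and Krt34 (9.01 ± 3.01, adjusted p = 0.0242) depend on the pseudocount and are no bounds. Krt33a, Krt36, Krt81 and Krt83 differed by 4.21 to 8.05 with adjusted p from 0.0509 to 0.0724, short of the threshold. The count fell to 0 without library 24, to 1 without library 25 and to 3 without unexposed library 39 or 40, and rose to 10 without library 23. It was 3 when only the compared groups were fitted, and 10 with a pseudocount of 8, by edgeR (beside 27.4% of all genes) and by DESeq2 (beside 31.5%).

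**Figure D3:**
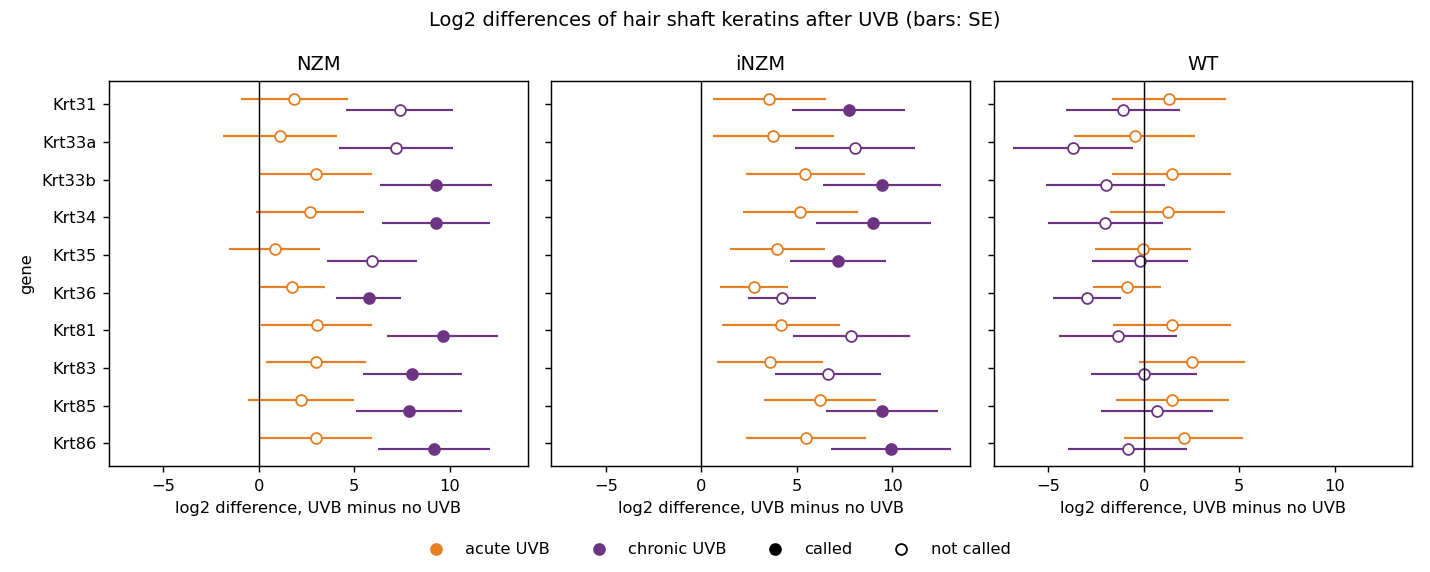
Log2 difference of each hair shaft keratin between UVB-exposed and unexposed skin of the same strain, with SE bars, for acute (orange) and chronic (purple) UVB; filled points had limma adjusted p below 0.05. Filled points occur for chronic UVB in NZM (7) and iNZM (6) and not in WT, where chronic differences run from -3.70 to 0.70.

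After acute UVB, all 10 differences were positive in NZM (0.82 to 3.02, median 2.44) and in iNZM (2.75 to 6.21, median 4.07), and limma called none in either. The backgrounds were 21.4% and 25.2% of genes called. In NZM, library 5 alone was high: Krt86 had 1.52, 0.802, 0, 34.6 and 22199 normalised reads in libraries 1, 46, 3, 47 and 5. In iNZM, libraries 6 and 49 were high, with Krt86 at 18163, 2.95, 15588, 0 and 0 in libraries 6, 48, 49, 9 and 10. The SE over members was 1.69 to 2.97 in NZM and 1.80 to 3.15 in iNZM, so that a group with 1 or 2 high libraries did not pass. The tools that model counts did call these comparisons: edgeR and DESeq2 on the recovered reads each called all 10 as higher in NZM acute and in iNZM acute. These calls were not repeated without library 5, 6 or 49. The median of the summed members was lower in NZM acute than in unexposed NZM, at 28.3 against 88.2 normalised reads. In iNZM it was 89.5 after acute UVB against 59.3 without. Over all genes, edgeR called 22.2% and 25.9% in these comparisons and DESeq2 26% and 30%. At an unadjusted p below 0.05 limma had 0 members in NZM acute and 1 in iNZM acute, and the adjusted count became 1 in iNZM acute without library 9.

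WT skin stayed low in every regimen. Krt86 had 0, 0, 472 and 0 normalised reads in unexposed libraries 41, 43, 44 and 45, then 104, 0, 7.76, 4.08 and 634 in acute libraries 50, 51, 13, 52 and 15, and 35.9, 0, 2.18, 0 and 0 in chronic libraries 58, 27, 28, 29 and 59. Krt35 had 19.7, 25.7, 403 and 8.74 without UVB, 324, 2.6, 81.5, 0 and 750 after acute and 344, 48.6, 16.3, 20.5 and 5.35 after chronic UVB. The WT groups overlapped for both genes. Unexposed library 44 held reads of all 10 members, 3381 normalised reads in sum, against 52.2 to 95.3 in the other unexposed WT libraries. Krt33b and Krt34 had no read in the 5 chronic WT libraries, and their means without UVB, which library 44 alone made up, were at least 92.2-fold and 95.9-fold higher than a floor of 3 reads over that group. For WT acute UVB, 7 of 10 differences were positive (-0.88 to 2.54) and limma called none, beside a background of 21.7%. For WT chronic UVB, 2 of 10 were positive (-3.70 for Krt33a to 0.70 for Krt85) and limma called none, beside 35.3%. No member had an unadjusted p below 0.05 in either comparison. DESeq2 called 2 members lower in WT chronic, beside 39.7% of all genes, and none in WT acute, and edgeR called none in both. Fitting only the compared groups gave 1 lower member in WT chronic, and so did leaving out the 9 high libraries.

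Chronic and acute UVB were compared within each strain, a contrast that differs in dose, number of exposures and time since the first. All 10 differences were positive in NZM (median 5.88, highest 6.59) and in iNZM (1.46 to 4.45), and all 10 were negative in WT (-3.45 to -0.17). Limma called none in any strain, beside backgrounds of 7.55% in NZM, 8.26% in iNZM and 37.3% in WT. At an unadjusted p below 0.05 there were 8 members in NZM and 0 in the other strains. The edgeR count was 0 in all 3, and DESeq2 called 4 members lower in WT, beside 40.5% of all genes, and none in NZM or iNZM. Without acute library 5, 6 members were called higher after chronic UVB in NZM, and without chronic library 54, 1 was.

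Strains were compared within each regimen. After chronic UVB, 6 members (Krt33a, Krt33b, Krt34, Krt36, Krt81 and Krt86) were higher in NZM than in WT, beside a background of 7.88%, and all 10 differences were positive (5.89 to 9.86, median 8.85). For Krt36 the NZM values given above did not overlap the WT values of 16, 1.47, 16.3, 0 and 0, and the difference was 5.89 ± 1.69 (limma adjusted p = 0.0235). The means of Krt33b and Krt34 were at least 12466-fold and 11862-fold higher in NZM, against a floor of 3 reads over the WT group (8569-fold and 7837-fold without library 55), and the median with both at these bounds was again 8.85. This count was 0 without library 17, 55 or 56, 10 without library 54, 1 without WT library 27, 29 or 59 and 3 without WT library 28. DESeq2 called 10, beside 10.7% of all genes, and edgeR 8, beside 8.2%. Krt36 was the only member of the 10 without overlap, beside 6.84% of all genes.

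Without UVB and after acute UVB, no member differed between NZM and WT by limma, beside backgrounds of 15% and 13%, with differences of -2.83 to 0.07 and of -0.38 to 0.90. Between iNZM and NZM none was called without UVB (-1.56 to 1.24, background 0.0313%), after acute UVB (median 1.86, highest 2.52, background 0.224%) or after chronic UVB (-1.02 to 0.55, background 0.428%). None of these 5 comparisons had a member with an unadjusted p below 0.05. Across them edgeR called none and DESeq2 called 2 members, both lower in unexposed iNZM than in unexposed NZM, beside 0.423% of all genes there. With SEs of 1.69 to 3.15 on the log2 scale, only differences of several log2 units could have passed. These SEs use a spread shared by all groups, not that of the 2 groups compared. Without UVB, Krt33b had a log2 SD of 0 in iNZM and 1.34 in NZM, beside an SE of 3.10. These strains are thus not shown to be alike.

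Whether the response itself differed between strains was tested as an interaction. For chronic UVB in NZM against WT, all 10 members had positive terms and 1 was called, Krt36, at 8.72 ± 2.47 (limma adjusted p = 0.0260), beside a background of 7.58%. Krt36 moved from 0, 0, 13.9, 7.33 and 8.72 to 19.9, 733, 32.3, 1133 and 926 in NZM, and from 6.96, 24.7, 45.8 and 76.3 to 16, 1.47, 16.3, 0 and 0 in WT. The 2 strains thus lay on opposite sides, with a WT change of -2.97 ± 1.80 that did not pass on its own (adjusted p = 0.199). The adjusted p of this interaction was 0.0535 without library 55, 0.0539 without library 56, 0.0535 without WT library 29 and 0.0692 without unexposed WT library 45. The number of members called was 4 without library 54, 5 with only the compared groups, 8 by edgeR (beside 8.73% of all genes) and 10 by DESeq2 (beside 13.2%). The other 3 interactions had 0 members by limma, 0 at an unadjusted p below 0.05 and 0 by edgeR: acute UVB in NZM against WT (background 0.115%), acute UVB in iNZM against NZM (background 0.00522%) and chronic UVB in iNZM against NZM (background 0%). DESeq2 called 2 members higher in the last, beside 2.02% of all genes, and none in the acute pair. Comparisons that use the same unexposed or WT libraries are not independent of each other.

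The make-up of the hair keratin reads varied among libraries that had them. In 14 libraries the 10 genes had at least 1000 reads in sum. Krt35 made up between 5.58% and 56.2% of these reads, Krt34 between 0.855% and 10.3% and Krt86 between 2.47% and 21.2%. These are spreads of 10.1, 12 and 8.58 times. Library 57, with 2223 such reads, gave the highest share of Krt35 and the lowest of Krt34 and Krt86. Krt33a and Krt31 kept closer shares, at 5.46% to 14.3% and 4.57% to 12.5%. Krt34 and Krt35 thus took the widest range of shares, and Krt85, Krt31 and Krt33a the narrowest.

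The ratio of the late Krt34 to the early Krt35 ordered the libraries. It was lowest at 0.0152 in iNZM chronic library 57, followed by 0.127 in iNZM chronic library 22 and 0.166 in WT acute library 50. The iNZM acute libraries 6 and 49 had 0.250 and 0.270, WT acute library 15 had 0.284, and iNZM chronic library 24 had 0.308. NZM chronic library 17 stood at 0.349, NZM acute library 5 at 0.426, NZM chronic library 56 at 0.570, unexposed WT library 44 at 0.648 and NZM chronic library 55 at 0.848. Only NZM chronic library 18, at 1.24, and iNZM chronic library 25, at 1.85, had more Krt34 than Krt35. Both ends of the order were thus iNZM chronic libraries, from 1 group with the same strain and regimen. Among type II genes, the ratio of Krt86 to Krt85 had the same 2 ends, 0.187 in library 57 and 4.25 in library 25.

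Some pairs of members kept their ratio across the 14 libraries. The SD of the log2 ratio was smallest for Krt34 with Krt86, at 0.22, followed by Krt33b with Krt81 at 0.24, Krt81 with Krt86 at 0.29 and Krt31 with Krt33a at 0.30. It was largest for Krt34 with Krt35, at 1.66, a spread that includes the ratio of 0.0152 in library 57, with 0.127 the next lowest. Krt35 and Krt85, the early pair, had an SD of 0.45. Krt81 and Krt86 share exonic stretches, as given above, and their mutual ratio is the least certain of these.

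**Figure D4:**
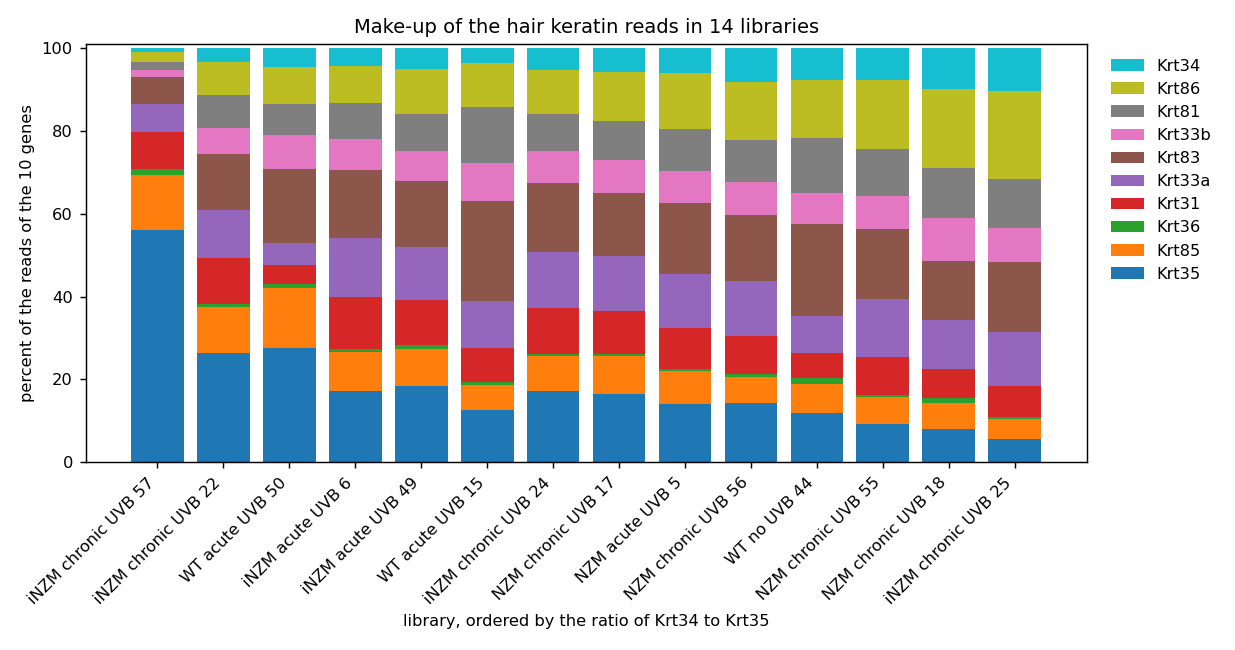
Share of each gene (percent, stacked bars) in the reads of the 10 hair shaft keratins, in the 14 libraries with at least 1000 such reads, ordered by the ratio of Krt34 to Krt35. Krt35 shrinks from 56.2% in iNZM chronic library 57 to 5.58% in iNZM chronic library 25, and Krt34 grows from 0.855% to 10.3%.

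Per kilobase of exon, Krt83 was the most abundant of the 9 members with a gene model, with 3319 to 46981 normalised reads per kb (median 15257) in the 9 high libraries, where it ranked first or second in each. Krt36 ranked last in all 9, with 228 to 1149 per kb (median 678). Between them Krt33a had a median of 11406, Krt86 of 11309, Krt35 of 10444, Krt31 of 10391, Krt33b of 8795, Krt81 of 8141 and Krt34 of 6067 per kb. Krt35 ranked from 1 to 8 and Krt34 from 3 to 8.

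Genes of the same profile were sought over the 43 libraries, by the root mean square difference of mean-centred log2 levels from the members' mean, which itself had an SD of 4.91. The members lay at 0.84 (Krt34) to 2.44 (Krt36), against a median of 4.94 over all genes tested. The 3 nearest keratin-associated protein genes, whose products cross-link hair keratins, were Krtap22-2 (0.72), Krtap9-3 (0.72) and Krtap1-5 (0.73), and 28 of the 60 nearest genes were of this family. The 8 nearest others were RP24-313G10.5 (0.72), RP23-272C1.10, Fam26d, RP23-212C14.5, RP23-212C14.4, RP23-132J20.2, Krt26 and RP23-132J20.7 (0.90). Krt26 is a keratin of the inner root sheath, the sleeve that moulds the growing shaft. All points of these profiles share the same libraries, so the measure is a description.

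Other parts of the growing follicle were read from lists. Over all genes tested, limma called 19% in NZM chronic, 28.9% in iNZM chronic and 35.3% in WT chronic. Of 10 inner root sheath and companion layer genes, 9 rose in NZM chronic (median 7.13) and 8 in iNZM chronic (median 7.07), and none was called in WT chronic (median -0.04). Krt25, an inner root sheath keratin, had the largest difference in both, at 10.22 ± 3.43 in NZM (limma adjusted p = 0.0341) and 10.69 ± 3.64 in iNZM (adjusted p = 0.0269). Krt75, of the companion layer, had the smallest, at 0.83 ± 0.59 in NZM (adjusted p = 0.331) and 2.10 ± 0.63 in iNZM (adjusted p = 0.0133). Of 55 keratin-associated protein genes, 45 rose in NZM chronic, 37 in iNZM chronic and none was called in WT chronic. Their medians were 7.04, 6.46 and -1.34. They were 8.60, 11.03 and -3.47 with the 26, 47 and 42 genes that had no read in 1 group set at their bounds. A bound is the log2 of a group mean over a floor, whereas the other differences are of mean log2 levels. For Krt34 in iNZM chronic the bound was 14.22 and the fitted difference 9.01. The second medians thus mix 2 measures and are no corrected size of the change. Krtap7-1 differed most, by 9.46 ± 3.15 in NZM (adjusted p = 0.0326), and Krtap13 least, by 1.08 ± 0.62 (adjusted p = 0.216). Of the 6 other hair keratins 2 rose in each of NZM and iNZM chronic, with Krt87 at 8.02 ± 2.89 in NZM (adjusted p = 0.0474) and 8.82 ± 3.07 in iNZM (adjusted p = 0.0297). The smallest differences there were 2.80 ± 1.44 for Krt32 in NZM (adjusted p = 0.169) and 2.15 ± 1.48 for Krt84 in iNZM (adjusted p = 0.272).

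Regulators and signals of hair growth moved less. Over all genes tested, limma called 19% in NZM chronic and 28.9% in iNZM chronic. List counts near these shares are no result about the list. Of 8 regulators, which include Hoxc13 and Foxn1 as activators of hair keratin genes, none was called in NZM chronic, where Dlx3 was highest at 2.74 ± 1.03 (adjusted p = 0.0570) and Foxq1 lowest at -0.37 ± 0.38 (adjusted p = 0.531). In iNZM chronic 3 rose and 1 fell, with Lef1, a mediator of Wnt signals, at 4.24 ± 1.197 (adjusted p = 0.00945) and Hr at -0.60 ± 0.20 (adjusted p = 0.0260). Of 16 growth signals, 1 rose and 4 fell in NZM chronic and 4 rose in iNZM chronic. Shh, the hair bulb's growth signal, was highest in both, at 3.50 ± 1.79 in NZM (adjusted p = 0.165) and 4.97 ± 1.90 in iNZM (adjusted p = 0.0454), and Fgf18, which holds follicles at rest, was lowest in NZM at -2.05 ± 0.60 (adjusted p = 0.0176), as was Eda2r in iNZM at -0.98 ± 0.51 (adjusted p = 0.138). Of 9 genes of the bulge and resting follicle, 4 fell in NZM chronic, with Krt15 at -1.88 ± 0.36 (adjusted p = 0.000463), and 4 fell and 1 rose in iNZM chronic, with Cd34 at -1.17 ± 0.34 (adjusted p = 0.0113). Lgr5 was highest in both, at 0.65 ± 0.38 in NZM (adjusted p = 0.233) and 1.44 ± 0.40 in iNZM (adjusted p = 0.00933). Of 8 dermal papilla genes none was called in NZM chronic and 3 rose in iNZM chronic, with values from -1.04 (Rspo3) to 3.13 (Corin) in NZM and from -0.80 (Sox18) to 3.19 (Corin) in iNZM. Of 8 pigment cell genes, 6 rose in NZM chronic and 7 in iNZM chronic, led by the pigment enzyme Tyrp1 at 5.07 ± 1.51 (adjusted p = 0.0189) and 6.40 ± 1.60 (adjusted p = 0.00408). Mitf was lowest of these, at 0.23 ± 0.33 (adjusted p = 0.675) and 0.65 ± 0.35 (adjusted p = 0.164).

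Other lists differed between the 9 high libraries and the other 11 UVB-exposed NZM and iNZM libraries, groups set by the members' own values and therefore described without a test. Summed inner root sheath genes ran from 131799 to 1037478 normalised reads in the 9 and from 1539 to 11453 in the 11. Pigment genes ran from 27230 to 70938 against 974 to 6996, proliferation genes from 14184 to 28247 against 6086 to 10994, growth signals from 14105 to 21532 against 7880 to 11901, and regulators from 23615 to 51393 against 6280 to 14772. None of these ranges overlapped. Skeletal muscle genes went the other way, at 69251 to 290841 in the 9 and 289731 to 707801 in the 11, overlapping at 1 end. After chronic UVB, limma called muscle genes lower than without UVB in each strain. The counts were 4 of 6 in NZM, 5 of 6 in iNZM and 5 of 6 in WT. Over all genes tested, 19%, 28.9% and 35.3% were called in these comparisons. Bulge genes ran from 40782 to 69722 against 45787 to 134505. Medians were also lower in the 9 for endothelium (1422 against 3969), immune cells (4399 against 13331), sebaceous gland (62725 against 142241) and adipocytes (11311 against 19570), and higher for dermal papilla (1600 against 1033), with ranges that overlapped. The part of a different tissue make-up in the keratin result was not tested. The mean level of 8 inner root sheath keratins was also fitted as a covariate. No member was then called in NZM chronic, iNZM chronic or NZM against WT chronic. These keratins include Krt26, Krt72 and Krt71, at 0.87, 0.91 and 1.05 from the members' mean profile. A covariate so like the members takes up their differences, so this result follows from the choice and supports nothing.

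**Figure D5:**
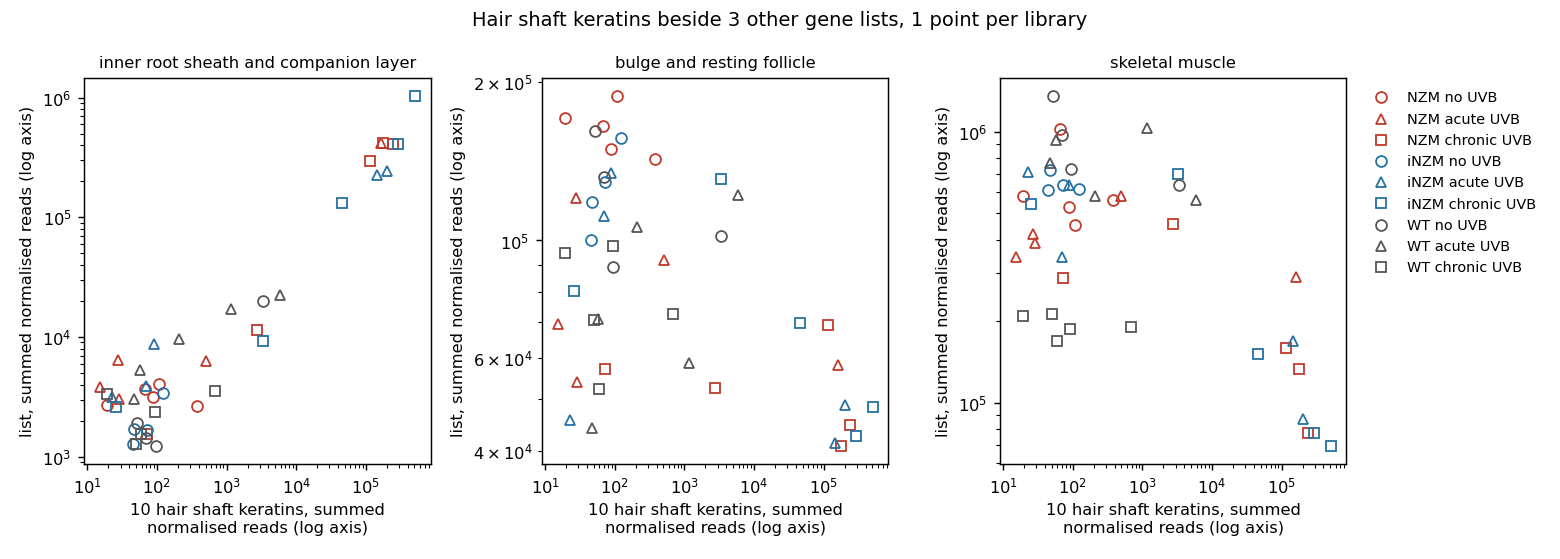
Summed normalised reads of 3 gene lists (vertical, log axis) against those of the 10 hair shaft keratins (horizontal, log axis), 1 point per library, with colour for strain and shape for regimen. The 9 high libraries sit apart at the right, at 131799 or more for the inner root sheath list and 290841 or less for skeletal muscle.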

How the data were processed

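Per the submitters' processing notes, the authors used STAR, HTSeq and DESeq2 on build mm10; versions and annotation are not given in the sources used here. The deposited table holds a signal per gene and library, read as gene counts divided by a size factor and called normalised reads. Within 0.01, 100% of values were whole multiples of the smallest step of their library, so whole reads and size factors (0.6735 to 1.750) were recovered. A check of the values took this as settled in 39 libraries; in the other 4, where 1 read is within 2% of 1, it did not, and their read shares, floors and count tests rest on the step alone.

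Genes with at least 10 normalised reads in at least 4 libraries were tested (19170) with limma-trend (3.58.1; R 4.3.3) applied to log2(value + 1), each group having its own mean in 1 fit over all 43 libraries, two-sided, Benjamini-Hochberg adjusted at 0.05 over all genes. There were 15 comparisons of 2 groups and 4 interactions. The fit takes 1 spread per gene for all groups, so an SE does not describe only the groups compared. The members' spread was unequal, with log2 SDs within a group from 0 (Krt33b in unexposed iNZM) to 7.75 (Krt33a in iNZM acute). The steps were tested on simulated data, with counts drawn around a common mean per gene and some genes changed in 1 group. That simulation did not imitate the members' split between near-absent and abundant libraries, so it does not bear on their calls. Alternatives included edgeR 4.0.16 and DESeq2 1.42.0 on recovered reads. Replicates within groups were not duplicates (lowest chi-square per gene 16.9).

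The 10 members and the 20 gene lists were chosen with earlier results of these data known. Named genes were all members, the 8 nearest in profile outside the members (of keratin-associated proteins, the nearest 3), and the largest and smallest differences of each list described; lists given only as counts in the closing section name fewer. Ifnar1, Krt14 and Col1a1 are named to check labels and tissue, and Hoxc13 and Foxn1 as background, outside this rule. Lists for adipocytes, fibroblasts, endothelium, immune cells, sebaceous gland, epidermal and stress keratins and ubiquitous genes are in the closing section. Gene positions came from GENCODE vM21 and promoters from RefSeq (GRCm38.p6). Python 3.11.15, pandas 2.3.3, numpy 2.4.6, scipy 1.17.1 and matplotlib 3.10.9 were used.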

Additional observations from a re-analysis of the deposited data

Results flagged for a closer look

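Of 90 sets of 1 member in 1 group, 9 had a library that stood apart from the rest by Dixon's ratio. Sets with 0 in every library could not be flagged. A chance rate of about 1 in 20 holds for independent sets with a normal spread. These members vary together and have many values of 0, so that rate does not apply here. In unexposed WT, library 44 was highest for Krt33b (251 normalised reads), Krt34 (261), Krt81 (452) and Krt86 (472), with 0 reads of each in the other 3 libraries. In unexposed NZM, library 33 was highest for Krt33b (6.94) and Krt34 (4.62), with 0 in the other 4, and library 32 was lowest for Krt33a, at 0. In NZM acute, library 5 was highest for Krt34 (9761), and in WT chronic, library 58 was highest for Krt81 (18.96), with 0 in the other 4.

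The change of Krt36 after chronic UVB differed between NZM and WT, by a limma interaction term of 8.72 (adjusted p = 0.0260) on the log2 scale. Over all genes tested, 7.58% were called in this interaction. All 5 exposed NZM libraries lay above all 5 unexposed ones, beside 13.7% of all genes without overlap, whereas the WT groups overlapped. The gap was small, from 13.9 normalised reads in unexposed library 33 to 19.9 in exposed library 54. As given above, the call was lost without library 55, library 56, WT library 29 or unexposed WT library 45.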

How the results depend on the processing

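Without a single replicate, the number of members called ran from 0 to 10 in NZM chronic, iNZM chronic and NZM against WT chronic, from 0 to 1 in iNZM acute, from 0 to 6 in NZM chronic against acute and from 0 to 4 in the chronic interaction of NZM and WT. Called counts were 0 at a threshold of 0.01 in all 4 comparisons that had called members. By edgeR and by DESeq2 they were 10 in NZM acute, iNZM acute and iNZM chronic, and in the chronic interaction of NZM and WT 8 and 10. Single libraries were left out only with limma, so how far the edgeR and DESeq2 counts rest on 1 library was not tested. DESeq2 alone gave 10 in NZM against WT chronic, 2 in WT chronic, 4 in WT chronic against acute, 2 in unexposed iNZM against NZM and 2 in the chronic interaction of iNZM and NZM. A pseudocount of 8 gave 10 in iNZM chronic. Fitting only the compared groups gave 3 in iNZM chronic, 1 (lower) in WT chronic and 5 in the chronic interaction of NZM and WT. Leaving out the 9 high libraries, chosen after seeing the data by the members' own values, gave 0 in NZM chronic, iNZM chronic and NZM against WT chronic and 1 (lower) in WT chronic. The cause was not tested.

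With inner root sheath keratins as a covariate the counts were 0 in NZM chronic, iNZM chronic and NZM against WT chronic, 4 (lower) in WT chronic, 1 (higher) in WT chronic against acute and 1 (lower) in unexposed NZM against WT. Signs turned in NZM chronic for Krt31 (-1.02), Krt33a (-1.70), Krt35 (-1.14) and Krt85 (-0.48), and in iNZM chronic for Krt31 (-0.82), Krt33a (-0.96), Krt35 (-0.056), Krt36 (-0.34), Krt81 (-1.06) and Krt83 (-1.43). The genes of this covariate are close to the members in profile, so the lost calls and turned signs follow from that choice. They support nothing. No other alternative reversed a member in these 2 comparisons. The other settings, with TMM scaling, filters, a pseudocount of 0.5 and a covariate for titles numbered 46 or above, kept every count within 1.5 times. TMM scaling moved the median of all genes by under 0.1. No paired analysis was possible because groups share no replicate numbers. Depth set no limit in the 9 high libraries, whereas members at 0 to 3 reads in unexposed skin are known only to counting error.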

Other observations

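In WT, summed pigment cell genes were 4682 to 22822 normalised reads in the 5 chronic WT libraries, with a median of 5838, and 1780 to 6131 in the 4 unexposed ones, with a median of 2937, while summed hair keratins were 19.3 to 687 and 52.2 to 3381. None of 8 pigment genes was called in WT chronic by limma, with differences of -0.27 (Mitf) to 2.48 (Tyr). All 8 proliferation genes rose in WT chronic, by up to 2.83 ± 0.40 for Birc5, beside 4 in NZM chronic and 7 in iNZM chronic. Over all genes tested, limma called 19% in NZM chronic, 28.9% in iNZM chronic and 35.3% in WT chronic. Counts here and in the next paragraph that lie near these shares are no result about a list.

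Among epidermal keratins, 3 of 7 fell in NZM chronic, 2 fell in iNZM chronic, and 3 rose and 2 fell in WT chronic, with Krt77 lowest (-4.77, -5.00 and -6.22) and Krt1 highest (1.16, 0.12 and 3.27) in each. Of the 4 stress keratins of injured epidermis, 2 rose in NZM chronic, 0 in iNZM chronic and 3 in WT chronic, with Krt6b highest (4.82, 1.45 and 7.57) and Krt17 lowest (0.07, -0.76 and 0.39). Of 5 adipocyte genes, 0 were called in NZM chronic and 4 fell in each of iNZM and WT chronic. Of 6 fibroblast genes, 3 rose in NZM chronic, 5 fell in iNZM chronic and 4 fell in WT chronic. Of 4 endothelial genes, 0, 1 and 1 fell in NZM, iNZM and WT chronic. Of 7 immune cell genes, 1 rose and 1 fell in NZM, 5 fell in iNZM, and 2 rose and 2 fell in WT. Of 6 sebaceous gland genes, 1 rose and 1 fell in each of NZM and iNZM, and 3 rose and 1 fell in WT. Of 5 ubiquitous genes, 1 fell in NZM, 1 rose and 1 fell in iNZM, and 2 rose and 1 fell in WT. Of 7 other hair shaft proteins, 4 rose in NZM, 5 in iNZM and 1 in WT, with Padi3, which modifies arginine in shaft and sheath proteins, highest in NZM at 8.38 and Tgm3, a cross-linking enzyme, highest in WT at 3.34, and Selenbp1 lowest in all 3 (1.198, 0.73 and -1.08).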
